A study of Mus musculus with 3 samples.

Results

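The genes described here encode the factors that start protein synthesis on an mRNA, the eukaryotic initiation factors (Eif genes), and the factors that extend the peptide chain, the eukaryotic elongation factors (Eef genes). Members were every gene row whose name begins with Eif and a digit from 1 to 6 or with Eef and a digit from 1 to 2, with names holding "-ps" (pseudogenes) left out. This gave 66 of 50507 rows, 56 initiation and 10 elongation factor genes. Of these, 42 had enough counts to be tested, among 3013 genes tested in all. The name rule also takes up enzymes and inhibitors that act on the factors, and 1 row, Eif2c5, that belongs to no role group used here and held 3 counts.

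The cells were wild-type BL6 mouse embryonic fibroblasts (MEFs), primary connective tissue cells, reprogrammed at passage 2. All cells were transduced with the same lentiviruses, tet-STEMCCA with Oct4, Sox2, Klf4 and c-Myc transgenes and the rtTA transactivator that doxycycline turns on. Reprogramming was started with medium that held 2 µg/mL doxycycline, 3 µM Chiron (a GSK3 inhibitor), 0.25 µM Alk5 inhibitor, 50 µg/mL ascorbic acid and LIF. The time course held untransfected cells, re-plated only, from day 0 to day 6 (21 libraries, 3 per day). The screen held cells that received 40 nM of pooled siRNAs against 1 of 33 targets, re-plated and induced 24 h later, for 98 libraries in all. Its controls were non-targeting siRNA (nt, 3 libraries) and Mock (5 libraries). Whole wells were lysed without a sort, so each library averages cells at different stages, and fewer cells of a type and less RNA per cell cannot be told apart.

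Initiation runs in steps. The eIF2 complex brings the initiator tRNA to the small ribosomal subunit, eIF1 and eIF1A help to choose the start codon, and the large eIF3 complex holds the assembly together. The cap-binding protein eIF4E, the scaffold eIF4G and the helicase eIF4A load the mRNA, while the 4E-BP inhibitors (Eif4ebp genes) keep eIF4E from eIF4G. eIF5 and eIF5B then let the large subunit join. In elongation, eEF1A delivers the aminoacyl-tRNA, the eEF1B complex recharges eEF1A with GTP, and eEF2 moves the ribosome by 1 codon. mRNAs of elongation factors often start with a run of pyrimidines, the TOP tract, through which their translation follows nutrient signals.

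Depth and labels set limits for all results below. The 127 libraries used held 29656 to 235292 UMI counts (median 73279) over 5228 to 12301 genes, and 2 libraries with 6403 and 7981 counts, 1 Mock and 1 siMtf1, were left out. Replicate 3 was the deepest pool, with a median of 127079 counts against 64227 and 63122. Of the 33 siRNA targets only 9 had enough counts for a test, and 0 of these were called lower with their own siRNA than with nt by edgeR, 0 also at an unadjusted p under 0.05. DESeq2 gave an adjusted p for 4 of them and called 0. Log2 fold changes of the 9 targets lay between -0.52 (Apex1) and 0.62 (Hdac1), and Hat1, with 106 counts under its own siRNA, stood at -0.09. Of all targets, 23 held 10 or fewer counts with their own siRNA. These libraries thus do not by themselves check the knockdowns. The study measured those of its Wdr5, Brca1 and Bard1 siRNAs by other assays, not used here. Summed fibroblast markers (8 genes, Col1a1 and Vim among them) stood at 5972 ± 864 CPM at day 0 and 2537 ± 515 CPM at day 6 (SD, n = 3 each), whereas the summed epithelial and early reprogramming list (5 genes, Cdh1 and Epcam among them) stood at 16.7 ± 7.27 and 171 ± 82.01 CPM. Of the macrophage markers (4 genes), Ptprc held 12 and Cd68 14 counts over all libraries, and of the endothelial ones (3 genes) Kdr held 18 and Cdh5 0. The study describes separate transfections for the replicates of the screen and calls its sequencing replicates independent. Whether the fibroblasts came from separate preparations is not given in the sources used here, so p-values measure the spread between these libraries, which may in part be technical.

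The start regions of 5 members that changed over the time course are shown to place them in the genome and to show which hold a TATA-like or pyrimidine motif. Each stretch runs from 45 bases before to 30 bases after the RefSeq start, on the gene's own strand (GRCm38.p6), with the letters TATAA and CTCTT in capitals. Eef1b2 lies at chr1:63176786-63176860 (plus strand), Eef2 at chr10:81176586-81176660 (plus), Eef1a1 at chr9:78481695-78481769 (minus), Eif4ebp2 at chr10:61452640-61452714 (minus) and Eif5b at chr1:37997965-37998039 (plus).
Eef1b2: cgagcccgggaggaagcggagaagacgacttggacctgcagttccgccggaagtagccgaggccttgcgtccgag
Eef2: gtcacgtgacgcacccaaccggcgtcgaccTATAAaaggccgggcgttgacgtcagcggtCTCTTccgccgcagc
Eef1a1: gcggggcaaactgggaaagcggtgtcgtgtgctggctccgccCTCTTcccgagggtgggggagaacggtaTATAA
Eif4ebp2: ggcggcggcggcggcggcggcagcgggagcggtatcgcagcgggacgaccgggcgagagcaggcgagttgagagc
Eif5b: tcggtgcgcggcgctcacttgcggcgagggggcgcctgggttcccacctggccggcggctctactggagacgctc
Eef2 and Eef1a1 held both motifs and the other 3 held neither. Their places differed: in Eef2 TATAA lay before the start and CTCTT after it, and in Eef1a1 TATAA lay after the start and after CTCTT. On either strand, TATAA was found in 2523 (7.68%) and CTCTT in 6516 (19.8%) of 32851 stretches of this length, and 51 of the 66 members had a RefSeq start. A match is a description of letters, not a site.

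Counts were spread unevenly over the members. CEL-Seq2 counts 3′ ends of molecules, so levels were set side by side without division by transcript length, in CPM (counts scaled to the same total of tested genes in every library). Eef1b2, an eEF1B subunit, was the most abundant member by far, with 12265 counts over all libraries and a median of 1334 CPM, and made up 48.3% of all elongation factor counts. Eef2 followed with 15.6%, Eef1a1 with 12.1% and Eef1g, another eEF1B subunit, with 10.7%. No initiation factor gene took a comparable share: Eif4g2, an eIF4G relative that works without the cap, led with 7.67% of initiation factor counts (median 537 CPM), before Eif3a (536 CPM), the largest eIF3 subunit, and Eif1a (514 CPM).

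Among the 24 untested members were 2 whole role groups. None of the 5 eIF2B genes, which recharge eIF2, and none of the 4 eIF2 kinases, which inhibit it under stress, reached the count filter. The most counts in these groups were 392 for Eif2b3 and 249 for Eif2ak2, over 127 libraries. Of the elongation factor enzymes, Eef1akmt1 was tested (1244 counts), while Eef2k, the kinase that inactivates eEF2, held 144 counts. Eif4e1b and Eif4ebp3 had 0 counts and the Y-linked Eif2s3y had 1.

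Many members have near-identical copies elsewhere in the genome, so that reads may be split between rows. In the annotation, 24 members had a pseudogene of at least 300 bases at 90% identity or more with a row of its own. For 8 members the copy rows held over 25% of the member's own counts. The copies of Eef1g held 4061 counts beside its own 2727, those of Eef1a1 held 2325 beside 3078, that of Eif3m held 2325 beside 2315, that of Eif2s2 3349 beside 3630, those of Eif1 2181 beside 2326 and those of Eif3e 963 beside 1746. Levels of these 6 genes are uncertain for this reason, as are those of Eef1d and Eif4a1. Beside pseudogenes, the members Eif3j1 (1388 counts) and Eif3j2 (1268 counts) are near-identical copies of each other, so their levels are uncertain too. Whether the counting used strand is not given in the sources used here, so reads of Eif5b, Eef1b2 and Eif3m cannot be told from those of the genes that overlap them on the other strand (Rev1, Ndufs1 and Ccdc73), nor those of Eif4a2 from Rfc4. In all, 8 tested members were overlapped in this way.

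The summed level of the elongation factor genes, most of it from Eef1b2, Eef2 and Eef1a1, stood higher from day 1 on than at day 0, and that of the initiation factors differed less between days 0 and 6. The summed elongation factor level was 2106 ± 461 CPM at day 0, 2619 ± 207 at day 1, 2545 ± 192 at day 2, 3162 ± 438 at day 3, 2829 ± 224 at day 4, 3094 ± 44.8 at day 5 and 3054 ± 235 at day 6 (SD, n = 3 each). The day 6 libraries (2874 to 3320 CPM) lay above the day 0 libraries (1673 to 2591 CPM), and the ratio of the means was 1.45 ± 0.220 (SD over 3 replicates). The initiation factor sum was 7543 ± 504 CPM at day 0, peaked at 9590 ± 269 CPM at day 1 and was 8613 ± 228 CPM at day 6, where the ratio to day 0 was 1.14 ± 0.0714. With scaling by relative log expression (RLE) that ratio was 1.01, so its size rests on the scaling. The elongation ratio is scaled by the same totals, so its size rests on the scaling too. Counts of elongation factors per count of initiation factors were 0.278 ± 0.0459 at day 0, 0.406 ± 0.0203 at day 3 and 0.355 ± 0.0290 at day 6, a ratio that no scaling can move. Without Eef1b2 the elongation ratio to day 0 was 1.36 at day 3 and 1.335 at day 6. The median log2 fold change over the tested elongation members was -0.005 at day 3 and 0.61 at day 6, so that at day 3 the sum and the median member differ. No test was made of the sums.

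**Figure D1:**
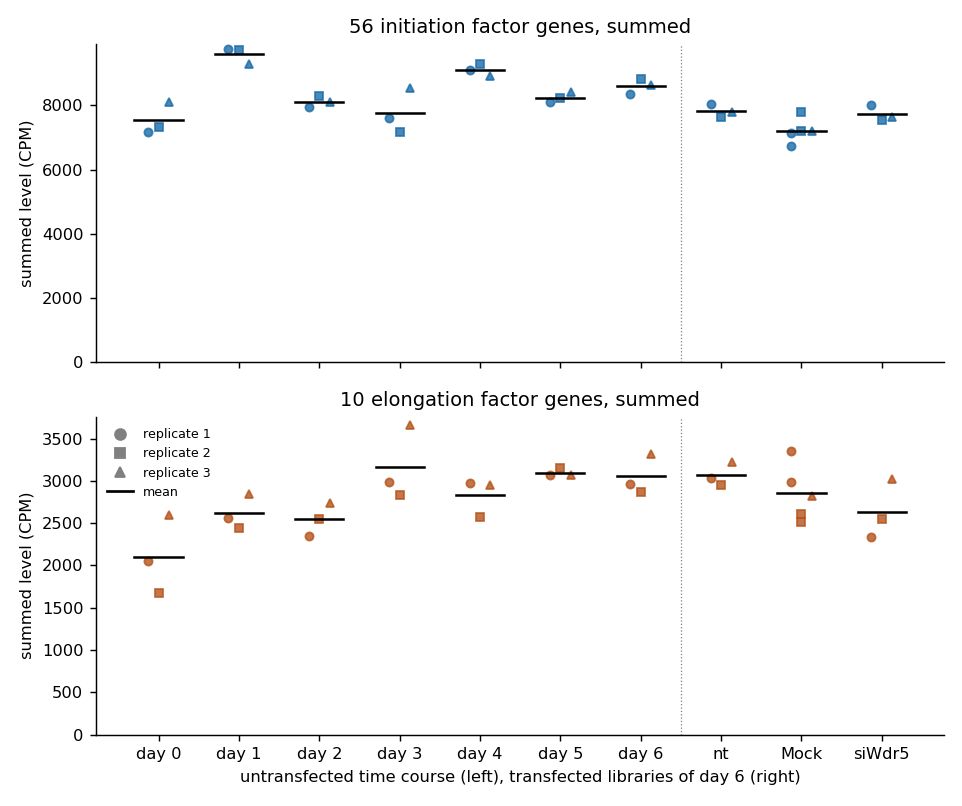
Summed level in CPM (y axes, from 0) of the 56 initiation factor genes (top) and the 10 elongation factor genes (bottom) for each library, with untransfected days 0 to 6 on the left and nt, Mock and siWdr5 libraries on the right. Points are libraries, their shape is the replicate and black lines are means. The elongation sum is lowest at day 0 (mean 2106 CPM) and the initiation sum is highest at day 1 (mean 9590 CPM).

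Which members changed over the 7 days was asked first with 1 test across all days. Of 42 members, 16 (38.1%) passed, beside 42.5% of all tested genes (edgeR quasi-likelihood F test, adjusted p under 0.05). Eef1b2, Eif4a1 and Eif5b had the smallest adjusted p among them (0.000243, 3.87e-05 and 5.23e-05). The profiles differed. The mean of Eif5b was highest at day 0 (610 ± 56.1 CPM), and it was 316 ± 16.2 at day 1, 566 ± 198 at day 3 and 351 ± 40.5 at day 6. Eif4a1, the main eIF4A helicase, was lowest at day 3 (139 ± 83.9 CPM) and highest at day 5 (443 ± 98.7 CPM). Eif4ebp1, an inhibitor of eIF4E, was highest at day 1 (255 ± 62.8 CPM, against 87.7 ± 34.7 CPM at day 0; adjusted p across days 0.00115). Eif2s1, the regulatory subunit of eIF2, was highest at day 5 (162 ± 10.2 CPM) and lowest at day 3 (35.3 ± 17.4 CPM), with an adjusted p of 0.000718. Eif5a, which helps ribosomes through stalls, did not pass (adjusted p = 0.482).

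Between day 0 and day 6, an eEF1B subunit and eEF2 gained transcripts. Eef1b2 measured 657, 656 and 927 CPM at day 0 and 1335, 1084 and 1302 CPM at day 6, and the groups did not overlap. Its level rose by 0.68 ± 0.18 on the log2 scale (SE, edgeR adjusted p = 0.00226), and this call held in all 9 alternatives run for it. Eef2 measured 452, 275 and 439 CPM at day 0 and 638, 560 and 764 CPM at day 6, again without overlap (log2 fold change 0.75 ± 0.23, edgeR adjusted p = 0.00776; held in 6 of 9 alternatives, not with DESeq2). Eef1a1 was not called between these days (264 ± 65.2 and 299 ± 38.6 CPM, log2 fold change 0.07 ± 0.28, adjusted p = 0.902).

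At day 3 all 3 of these genes were above day 0. Eef1b2 reached 1329, 1156 and 1469 CPM (log2 fold change 0.78 ± 0.18, edgeR adjusted p = 0.000854). Eef2 reached 665, 596 and 941 CPM (0.93 ± 0.23, adjusted p = 0.00123). Eef1a1 reached 350, 470 and 537 CPM against 287, 191 and 315 CPM at day 0 (0.74 ± 0.26, adjusted p = 0.0458). These were the only 3 members called at day 3, all higher, where 10.9% of all genes were called (5.11% higher, 5.81% lower). Of the 9 alternatives run, the call of Eef1a1 held only when its copies were counted with it (log2 fold change 0.63, adjusted p = 0.0468). Its highest mean was at day 5 (444, 531 and 503 CPM), and at day 6 it stood at 341, 289 and 266 CPM, lower than at day 3 by a log2 fold change of -0.67 ± 0.25 (adjusted p = 0.0476). That call held in 2 of 9 alternatives and was lost with copies counted together. Summed fibroblast markers were 5972 ± 864 CPM at day 0 and 3107 ± 305 CPM at day 3. The epithelial and early reprogramming list summed to 16.7 ± 7.27 and 14.6 ± 13.4 CPM. The part of either list in the day 3 differences was not tested.

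The other 3 called genes, all initiation factors, differed between day 0 and day 6, in opposite directions. Eif4ebp2, an inhibitor of cap-dependent initiation, measured 103, 148 and 141 CPM at day 0 and 326, 289 and 300 CPM at day 6 (log2 fold change 1.17 ± 0.35, edgeR adjusted p = 0.00776). At day 5 its libraries still held 102, 133 and 90.2 CPM. Eif5, which triggers GTP hydrolysis on eIF2, rose from 226, 296 and 257 CPM to 356, 524 and 498 CPM (0.84 ± 0.27, adjusted p = 0.0149). Eif5b, the GTPase of subunit joining, fell by 0.86 ± 0.25 on the log2 scale (adjusted p = 0.00592), from 616, 551 and 662 CPM to 386, 362 and 307 CPM. In none of the 3 did the day 0 and day 6 libraries overlap. That was so for 11 of the 42 tested members, called or not, and the share over all genes was not taken. Of 9 alternatives, the calls of Eif4ebp2, Eif5b and Eif5 held in 7, 5 and 4.

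**Figure D2:**
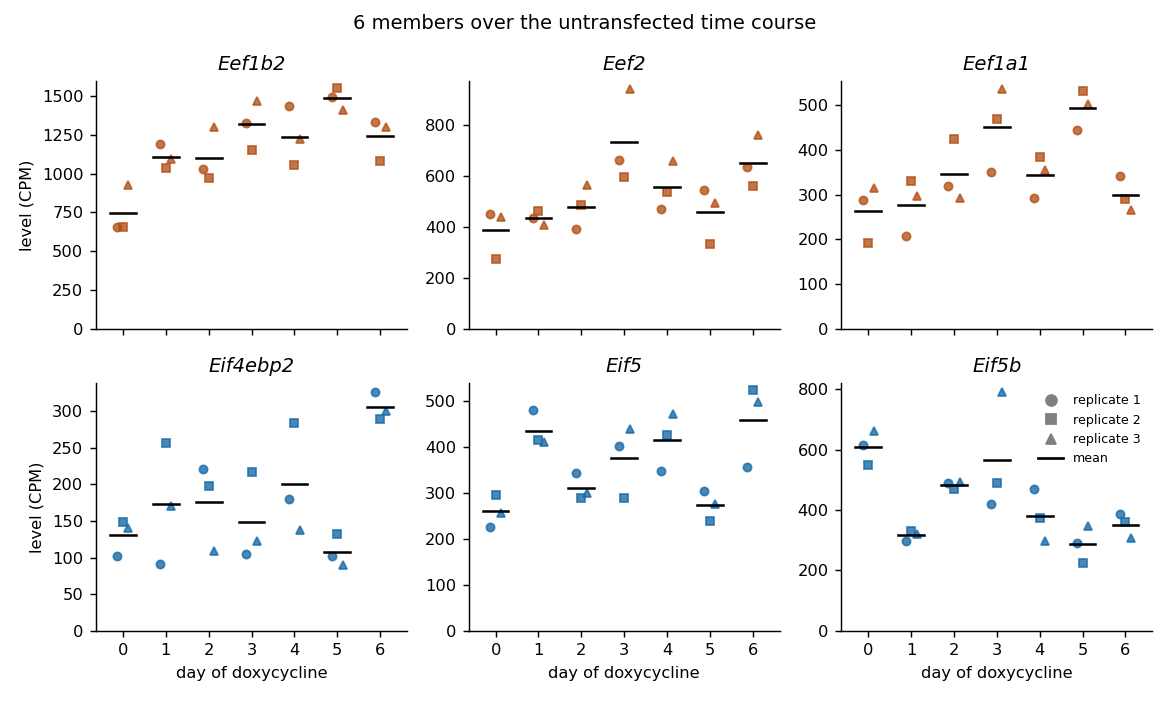
Level in CPM (y axes, from 0) of 3 elongation factor genes (top row) and 3 initiation factor genes (bottom row) in each untransfected library by day of doxycycline (x axis). Points are libraries, their shape is the replicate and black lines are means. Eef1b2 and Eef2 lie higher at days 3 and 6 than at day 0, Eif4ebp2 stands out at day 6 (289 to 326 CPM) and the mean of Eif5b is highest at day 0 (610 CPM), though 1 day 3 library is higher (792 CPM).

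In all, 5 of 42 members were called between day 0 and day 6 (4 higher, 1 lower), or 11.9%, where 22.2% of all genes were called (10.7% higher, 11.5% lower). The median log2 fold change was 0.34 over the members and 0.05 over all tested genes, and 33 members lay above 0. RLE scaling moved the median of all genes by -0.16, and the 5 members kept their direction under it. Between day 3 and day 6, 4 members were called where 15.9% of all genes were (7.93% higher, 8% lower). Eif4ebp2 (1.096 ± 0.34) and Eif4a1 (0.95 ± 0.34) were higher, Eef1a1 and Eif5b (-0.81 ± 0.25) lower. Without the replicate block none of these 4 calls held, and without replicate 3 only that of Eif4a1 did. Without replicate 3, the deepest, only Eef1b2 of the 5 calls between day 0 and day 6 also held. The fibroblast and epithelial marker sums moved with these differences, and their part in them was not tested.

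Transfected control cells and untransfected cells of the same day differed in more members than any 2 days that were compared. With nt siRNA, 14 of 42 members (33.3%) were called against untransfected day 6, 5 higher and 9 lower, where 26.6% of all genes were called (15.6% higher, 11% lower). The median log2 fold change was -0.14 over members and -0.01 over all tested genes. RLE scaling moved the median of all genes by -0.14, and the 14 members kept their direction. Eif1a, which helps to select the start codon, measured 193, 271 and 266 CPM at untransfected day 6 and 500, 793 and 547 CPM with nt (log2 fold change 1.29 ± 0.25, edgeR adjusted p = 2.41e-05). The 5 Mock libraries also held 596 to 721 CPM, well above the untransfected ones.

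Of the 3 tested eIF2 genes, 2 were higher with nt. Eif2s2, the beta subunit, measured 163, 217 and 300 CPM untransfected and 300, 509 and 670 CPM with nt, so that the groups overlapped (1.12 ± 0.26, adjusted p = 0.000418). Eif2s1, the alpha subunit that stress kinases phosphorylate, measured 29.7, 54.2 and 81.8 CPM untransfected and 217, 120 and 180 CPM with nt (1.49 ± 0.43, adjusted p = 0.00557). Mock libraries held only 0 to 103 CPM of Eif2s1, and against Mock the log2 difference from day 6 was 0.10 (adjusted p = 0.913). The third tested eIF2 gene, Eif2s3x, was not called (0.36 higher on the log2 scale).

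Of 12 tested eIF3 genes, 1 was higher and 3 were lower, a share not far from that of all genes given above. Eif3e rose from 74.2, 127 and 102 CPM to 266, 269 and 229 CPM (1.34 ± 0.37, adjusted p = 0.00331). Eif3l fell from 163, 163 and 177 CPM to 117, 14.96 and 32.7 CPM (-1.76 ± 0.49, adjusted p = 0.00386). Eif3b, the scaffold subunit that contacts the small ribosomal subunit, fell from 223, 253 and 191 CPM to 99.9, 120 and 81.7 CPM (-1.15 ± 0.40, adjusted p = 0.0213). Eif3f fell from 89.0, 145 and 81.8 CPM to 66.6, 29.9 and 16.3 CPM (-1.55 ± 0.60, adjusted p = 0.0431), on 8 counts in the 3 nt libraries. Of 11 alternatives, the calls of Eif3e, Eif3l, Eif3b and Eif3f held in 10, 7, 5 and 4. The other 8 tested eIF3 genes did not pass.

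Eif4a3 had the largest fold change of the called members. It encodes a helicase of the exon junction complex, close in sequence to the eIF4A proteins, and measured 252, 199 and 191 CPM untransfected but 117, 29.9 and 32.7 CPM with nt (-1.97 ± 0.43, adjusted p = 0.000163). This was the only one of the 14 calls that held in all 11 alternatives run. Eif4a2 rose from 89.0, 90.4 and 116 CPM to 183, 194 and 245 CPM (1.06 ± 0.37, adjusted p = 0.0242), a call that held in 2 of 11 alternatives, and Eif4g2 fell from 861, 976 and 866 CPM to 533, 598 and 621 CPM (-0.59 ± 0.20, adjusted p = 0.0172). Eif4ebp2, high at untransfected day 6, stood at 117, 180 and 65.4 CPM with nt (-1.47 ± 0.35, adjusted p = 0.000691), beside 103 to 148 CPM at day 0.

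Eif5b was also lower with nt, at 300, 120 and 147 CPM against 386, 362 and 307 CPM untransfected (-0.93 ± 0.31, adjusted p = 0.0154). Mock stood at a mean of 260 CPM, and with Mock in place of nt this call was lost. Of the elongation factors, Eef2 fell from 638, 560 and 764 CPM to 366, 299 and 417 CPM (-0.86 ± 0.22, adjusted p = 0.00178) and Eef1g from 401, 506 and 518 CPM to 266, 224 and 261 CPM (-0.92 ± 0.27, adjusted p = 0.00539). Eef1b2, in contrast, was not lower (1602 ± 88.6 CPM with nt, 1241 ± 136 CPM untransfected; log2 fold change 0.37 ± 0.16, adjusted p = 0.0797). The ratio of the elongation sum in nt to that in untransfected libraries rested on the scaling and on 1 gene: it was 1.005 ± 0.0297 with TMM, 0.909 with RLE, 0.820 as shares of all counts, and 0.808 with TMM without Eef1b2.

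**Figure D3:**
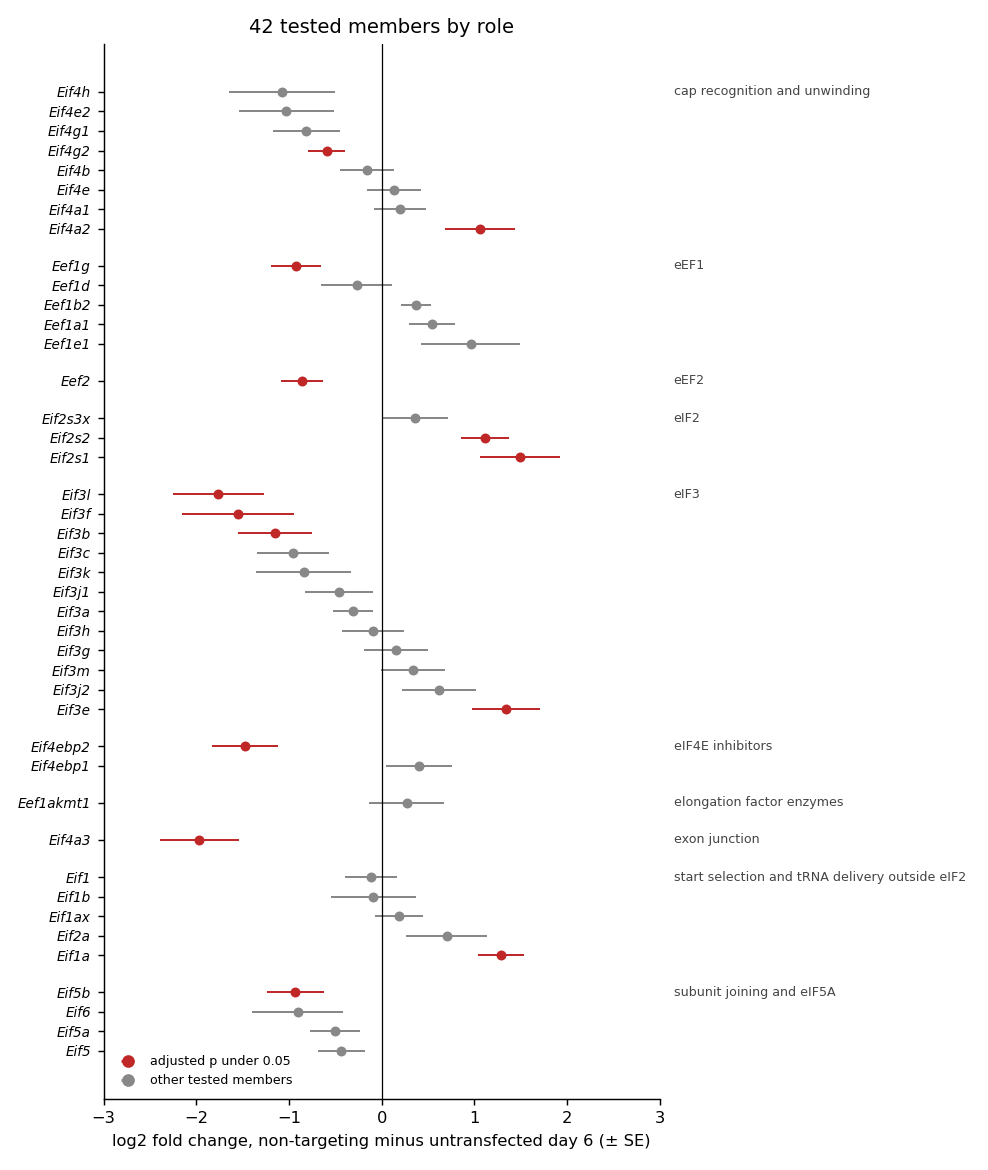
Log2 fold change of nt minus untransfected day 6 (x axis, fitted value ± SE) for the 42 tested members (y axis), grouped by role. Red points passed edgeR's adjusted p threshold of 0.05 and grey points did not. Eif1a, Eif2s1, Eif2s2, Eif3e and Eif4a2 lie to the right and Eif4a3, Eif3l, Eif3f, Eif4ebp2 and Eif3b farthest to the left among the called.

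With Mock in place of nt, 8 of the 14 calls against untransfected day 6 held: Eif1a, Eif3e, Eif3b, Eif3l, Eif4a3, Eif4ebp2, Eif4g2 and Eef1g. Without replicates 1, 2 and 3 in turn, 10, 7 and 6 held, and without the replicate block 9 did. Summed fibroblast markers were 2537 ± 515 CPM untransfected and 1434 ± 152 CPM with nt, and their part in these differences was not tested. Between Mock and nt, 0 of 42 members were called by edgeR, 2 (Eif2s1 and Eif4b) had an unadjusted p under 0.05 and DESeq2 called 0, while 1.56% of all genes were called.

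With the siRNA against Wdr5, a subunit of histone H3 lysine 4 methyltransferase complexes, more members were called than with any other siRNA. More of all genes were called with it too. Here 9 of 42 members (21.4%) were called against nt, 4 higher and 5 lower, beside 27.2% of all genes (12.2% higher, 15.1% lower). The median log2 fold change was -0.08 over members and 0.00 over all genes, and RLE scaling moved the latter by 0.17, with none of the 9 called members changing direction. The lower members included 3 called higher in nt than in untransfected cells (Eif1a, Eif2s2 and Eif3e), and the higher ones 2 called lower there (Eif3f and Eif5b). Since both comparisons use the same 3 nt libraries, they are not independent, and values are given side by side.

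Eif1a measured 396, 270 and 237 CPM with siWdr5 (log2 fold change -1.02 ± 0.25 against nt, edgeR adjusted p = 0.000614), Mock libraries 596 to 721 CPM and untransfected day 6 libraries 193 to 271 CPM. Eif2s2 measured 291, 199 and 237 CPM (-1.06 ± 0.26, adjusted p = 0.000841), against 288 to 463 CPM in Mock. Eif3e measured 92.5, 42.6 and 104 CPM (-1.57 ± 0.38, adjusted p = 0.000768), against 34.3 to 439 CPM in Mock, where 1 of 5 libraries was low. The siWdr5 and nt libraries did not overlap for any of the 3 genes. That was so for 16 of the 42 tested members, called or not, and the share over all genes was not taken. Eef1b2 fell from 1582, 1525 and 1699 CPM to 1004, 1066 and 1215 CPM (-0.55 ± 0.17, adjusted p = 0.00727). Eif4a1 measured 198, 185 and 190 CPM, with 1 nt library lower still (167 CPM; -0.81 ± 0.31, adjusted p = 0.0356).

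The other 4 called members were higher with siWdr5. Eif3a measured 925, 910 and 1082 CPM against 733, 538 and 498 CPM with nt (0.77 ± 0.21, adjusted p = 0.00277), and its mean was the highest among the 33 siRNAs. Eif4g1, the main eIF4G scaffold, measured 277, 284 and 190 CPM against 150, 165 and 81.7 CPM (0.98 ± 0.35, adjusted p = 0.0277). Eif5b measured 423, 426 and 323 CPM against 300, 120 and 147 CPM (1.09 ± 0.30, adjusted p = 0.00297). Eif3f measured 79.2, 99.5 and 123 CPM against 66.6, 29.9 and 16.3 CPM (1.599 ± 0.60, adjusted p = 0.0341). With Mock alone as the control, 6 of the 9 calls held, those of Eif2s2, Eif3f and Eif5b being lost. Without replicates 1, 2 and 3 in turn, 7, 5 and 3 held, and 5 held without the replicate block. Fibroblast markers summed to 4428 ± 293 CPM with siWdr5 and 1434 ± 152 CPM with nt. The epithelial and early reprogramming list summed to 26.4 to 71.1 CPM with siWdr5, 98.0 to 233 CPM with nt and 24.8 to 206 CPM with Mock. The part of either list in these differences was not tested.

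**Figure D4:**
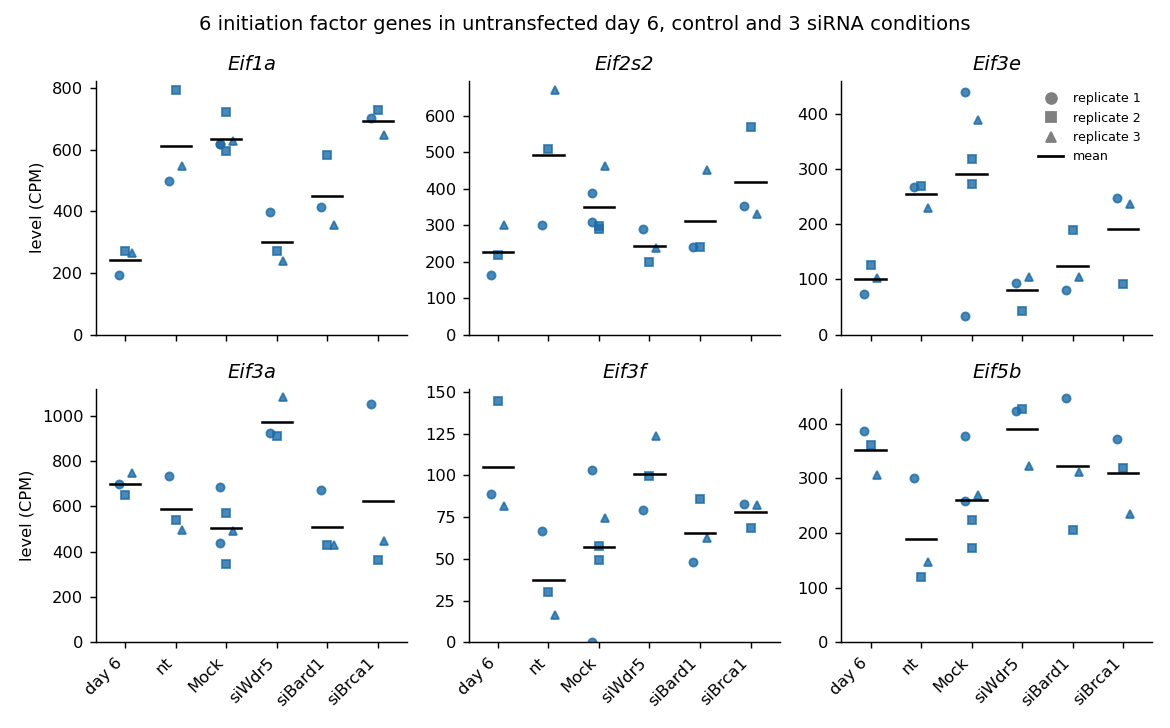
Level in CPM (y axes, from 0) of 6 initiation factor genes in untransfected day 6, nt, Mock, siWdr5, siBard1 and siBrca1 libraries (x axis). Points are libraries, their shape is the replicate and black lines are means. Eif1a is low in untransfected and siWdr5 libraries (193 to 396 CPM) and high in nt, Mock and siBrca1 libraries (500 to 793 CPM), and Eif3a is highest with siWdr5.

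Bard1 and Brca1 form a complex that acts in DNA repair. With siBard1, 4 of 42 members (9.52%) were called, beside 10.3% of all genes (5.54% higher, 4.78% lower). Eif3e was lower (79.8, 189 and 104 CPM; -1.102 ± 0.36, adjusted p = 0.0279), as were Eef1a1 (287, 377 and 167 CPM; -0.77 ± 0.26, adjusted p = 0.0325) and Eef1e1, a scaffold protein of the tRNA synthetase complex (16.0, 34.3 and 41.7 CPM against 117, 105 and 122 CPM with nt; -1.79 ± 0.60, adjusted p = 0.0356). Eif4a3 was higher (208, 137 and 118 CPM against 117, 29.9 and 32.7 CPM; 1.45 ± 0.46, adjusted p = 0.0227). None of the 4 calls held without the replicate block or without replicate 2, and none held without replicate 3, where Eef1e1 had no test. Only that of Eif4a3 held without replicate 1, and only that of Eif3e held with Mock alone as the control. With siBrca1 only Eef1a1 was called (248, 205 and 177 CPM against 450, 479 and 384 CPM; -1.06 ± 0.29, adjusted p = 0.0141), where 4.22% of all genes were. With its copies counted together Eef1a1 fell by 1.23, but its call was lost without any 1 replicate and with Mock alone as the control. Summed fibroblast markers were 2710 ± 391 CPM with siBard1 and 2453 ± 487 CPM with siBrca1. The epithelial and early reprogramming list summed to 0 to 68.5 CPM with siBard1 and 0 to 114 CPM with siBrca1. The part of either list was not tested.

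With the siRNA against Pou5f1 (Oct4, also 1 of the transgenes) 3 members were called, beside 5.77% of all genes (3.58% higher, 2.19% lower). Eif3m, an eIF3 subunit, was higher (405, 308 and 766 CPM against 167, 224 and 172 CPM with nt; 1.51 ± 0.30, edgeR adjusted p = 8.77e-05), as was Eif4a1 (563, 497 and 732 CPM against 167, 389 and 425 CPM; 0.86 ± 0.27, adjusted p = 0.0292). Eef1a1 was lower (270, 166 and 147 CPM; -1.21 ± 0.30, adjusted p = 0.00275). The groups did not overlap for any of the 3, and for 4 of the 42 tested members in all. The share over all genes was not taken. With siNcor1, against a corepressor subunit, Eif3m was the 1 member called (571, 356 and 631 CPM; 1.53 ± 0.29, adjusted p = 8.975e-05), beside 4.45% of all genes. None of these 4 calls held without replicate 3, and with Mock alone as the control that of Eif3m with siNcor1 and that of Eif4a1 with siPou5f1 were lost. Mock libraries held 199 to 343 CPM of Eif3m. Summed fibroblast markers were 857 ± 165 CPM with siPou5f1 (721 to 1041 CPM), below all nt libraries (1258 to 1532 CPM), and 1324 ± 212 CPM with siNcor1, and their part was not tested.

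Over the whole screen, 16 of 42 members (38.1%) differed among the 33 siRNAs and nt, beside 44.8% of all genes (edgeR F test). Eif3m had the smallest adjusted p (3.94e-11), before Eif3a (2.22e-08), Eif1a (3.00e-08) and Eif3e (9.99e-07). Eif3m ranged from a mean of 107 CPM with siWdr5 to 519 CPM with siNcor1. Eif1a ranged from 301 CPM with siWdr5 to 821 CPM with siKmt2e, and Eif3a from 286 CPM with siSet to 972 CPM with siWdr5. Eif3e ranged from 79.8 CPM with siWdr5 to 353 CPM with siNcor1. Of the elongation factors, Eef1a1, Eef1b2, Eef2 and Eef1e1 passed, and of the eIF4E inhibitors Eif4ebp2 did and Eif4ebp1 did not (adjusted p = 0.213).

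Tested 1 siRNA at a time, 25 of 1386 tests of members against nt were called (1.80%), beside 2.57% over all genes. They fell on 14 members and 11 siRNAs, with 11 calls higher and 14 lower, and 22 siRNAs had none. Eef1a1 was called with 4 siRNAs, each time lower: beside siBard1, siBrca1 and siPou5f1 this was siCdk1, against the mitotic kinase (282, 234 and 192 CPM; -0.90 ± 0.27, adjusted p = 0.0376; 2.59% of all genes called). Eif3m was called with 3, each time higher, the third being siPhf1 (296, 345 and 490 CPM; 1.07 ± 0.31, adjusted p = 0.0322; 1.92% of all genes). There were 9 calls with siWdr5, 4 with siBard1 and 3 with siPou5f1, and each remaining siRNA with calls had 1 or 2. Eef1b2 fell with siJarid2 to 1161, 914 and 680 CPM (-0.86 ± 0.19, adjusted p = 0.00344; 0.697% of all genes). Eif1ax, the X-linked copy of eIF1A, fell with siIrx1 to 198, 129 and 156 CPM, against 300, 359 and 441 CPM with nt (-1.18 ± 0.29, adjusted p = 0.00653; 2.02% of all genes). Eif4a3 rose with siSet to 323, 148 and 185 CPM (1.94 ± 0.50, adjusted p = 0.0441; 0.398% of all genes), a call that held in 1 of 11 alternatives, with RLE scaling. With siEp300 Eif5b was higher (0.99 ± 0.30, adjusted p = 0.0252) and Eef1e1 lower (-1.76 ± 0.56, adjusted p = 0.0373), beside 5.68% of all genes. Without the replicate block, none of the calls with siCdk1, siPhf1, siJarid2, siIrx1, siSet and siEp300 held. None held without replicate 2 or without replicate 3 either, though Eef1e1 had no test without replicate 3. With Mock alone as the control only that of Eef1b2 with siJarid2 did. Of 11 alternatives, the call of Eef1a1 with siCdk1 held in 3, those of Eif3m with siPhf1 and Eif1ax with siIrx1 in 4 each, that of Eef1b2 with siJarid2 in 7 and that of Eif5b with siEp300 in 5. The call of Eef1e1 with siEp300 held in 2 of 10. Summed fibroblast markers were 2567 ± 411 CPM with siCdk1, 2936 ± 895 with siEp300 and 2045 ± 150 with siIrx1, above all nt libraries (1258 to 1532 CPM). The epithelial and early reprogramming list summed to 30.3 to 77.9 CPM with siCdk1, below all nt libraries. The part of either list was not tested.

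**Figure D5:**
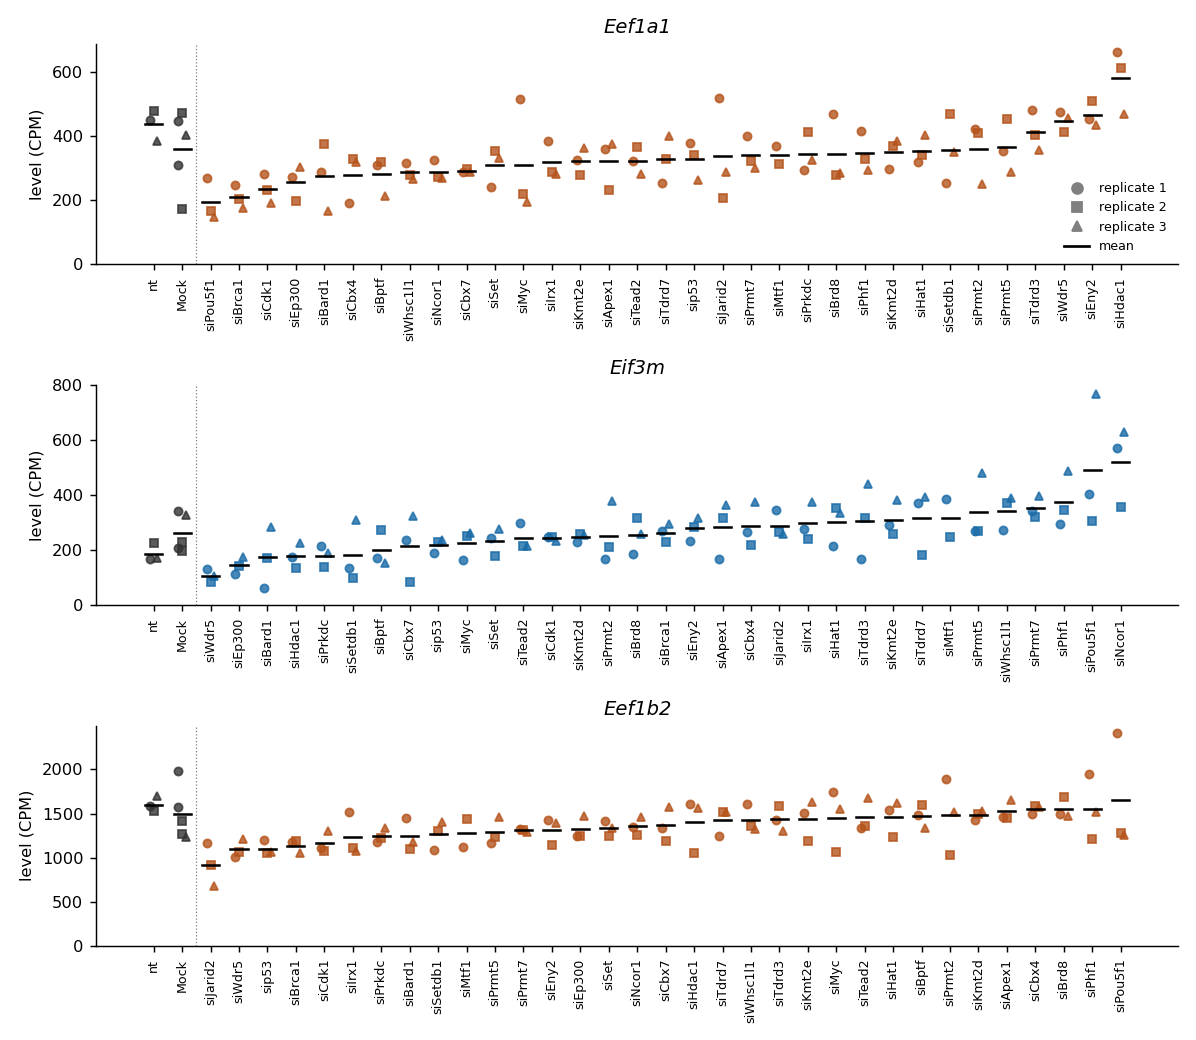
Level in CPM (y axes, from 0) of Eef1a1 (top), Eif3m (middle) and Eef1b2 (bottom) in nt and Mock libraries (left of the dotted line) and with each of 33 siRNAs, ordered from the lowest to the highest mean. Points are libraries, their shape is the replicate and black lines are means. Eef1a1 is lowest with siPou5f1 (mean 194 CPM), Eif3m is highest with siNcor1 (519 CPM) and Eef1b2 is lowest with siJarid2 (918 CPM).

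Every comparison in the screen rested on the same 3 nt libraries, and for several members nt stood near 1 end of the range. The mean of Eif4a3 was above nt with 32 of 33 siRNAs and those of Eif3c, Eif3f and Eif5b with 31. The mean of Eef1b2 was below nt with 32 of 33 siRNAs, as were those of Eef1e1, Eif2s1 and Eif2s3x, that of Eif1ax with 31 and that of Eef1a1 with 30. Mock lay between nt and the median siRNA for Eef1b2 (1602 CPM with nt, 1497 with Mock, 1368 for the median siRNA), Eef1e1 (115, 79.1 and 69.5 CPM), Eef1a1 (437, 361 and 328 CPM) and Eif4a3 (59.7, 94.1 and 106 CPM). For Eif2s1 Mock was lower still (172, 57.3 and 102 CPM), and for Eif5b it was slightly above the median siRNA (189, 260 and 256 CPM). In the siRNA libraries the sum of the initiation factors ranged from 5902 to 9439 CPM (median 7646) and that of the elongation factors from 1827 to 3985 CPM (median 2738), which took in all nt libraries (7627 to 8060 and 2946 to 3227 CPM). By condition, the elongation sum was lowest with siJarid2 (2074 ± 386 CPM) and highest with siBrd8 (3136 ± 81.2 CPM). With siWdr5 it was 0.858 ± 0.0823 of nt, but 1.05 without Eef1b2.

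Several abundant members did not pass in some or all of the main comparisons. Eif4e, the cap-binding protein, stood at 250 CPM at day 0, 268 at day 6, 274 with nt and 176 with siWdr5, with log2 fold changes of 0.12 ± 0.31 (day 6 against day 0), 0.14 ± 0.29 (nt against day 6) and -0.62 ± 0.31 (siWdr5 against nt; adjusted p = 0.124). Eif5a stood at 272, 385, 264 and 235 CPM in the same groups (0.41 ± 0.28, -0.50 ± 0.27 and -0.21 ± 0.30). Eif4ebp1 stood at 87.7, 139, 185 and 152 CPM (0.75 ± 0.43, 0.40 ± 0.35 and -0.30 ± 0.35), so that its day 1 level (255 CPM) was above all of them. Eif4g2, called lower in nt than at untransfected day 6 (584 and 901 CPM; -0.59 ± 0.20), was not called between days 0 and 6 (907 and 901 CPM; -0.03 ± 0.19) or with siWdr5 (733 CPM against 584 with nt; 0.30 ± 0.20, adjusted p = 0.268). Eif1, which guards start codon choice, Eif1ax and Eif6, which keeps the ribosomal subunits apart, were not called in any of these 3 comparisons. These misses do not show that the levels were equal.

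Other genes of the translation machinery were drawn from a list of 72 (release factors, poly(A)-binding proteins, tRNA synthetases, stress response and others), of which 29 were tested. Between day 0 and day 6, 2 were higher and 1 was lower, beside 22.2% of all genes called. Mcts1, which acts in reinitiation, rose from 24.9 ± 7.08 to 113 ± 20.2 CPM (log2 fold change 2.03 ± 0.61, adjusted p = 0.00704), Dars, the aspartyl-tRNA synthetase, rose by 1.65 ± 0.51, and Etf1, the release factor eRF1, fell by 0.95 ± 0.31. At day 3, Pabpc1, the main poly(A)-binding protein, stood at 783 ± 114 CPM against 343 ± 40.7 CPM at day 0 (1.13 ± 0.25, adjusted p = 0.00038), and Tpt1, which binds eEF1A, was also higher (0.66 ± 0.17). With nt against untransfected day 6, beside 26.6% of all genes called, 6 were higher, Aimp1 (2.35 ± 0.64), Paip2 (1.46 ± 0.53), Rars (1.35 ± 0.31) and Dars (0.95 ± 0.34) among them, and 2 lower, Iars (-2.50 ± 0.67) and Pabpc1 (-0.89 ± 0.27). With siWdr5 against nt, beside 27.2% of all genes called, 1 was higher, Pabpc1 (1.22 ± 0.26, adjusted p = 0.000106), and 6 were lower, Dars (-1.21 ± 0.36), Rars (-1.11 ± 0.30), Etf1 (-0.93 ± 0.32), Ddx3x, Farsb and Tpt1. Abce1, which recycles ribosomes, was lower in Mock (-1.51 ± 0.38) and siBard1 (-1.84 ± 0.38) libraries than in the same nt libraries. Farsb was also lower in Mock than in nt (136 and 352 CPM; -1.36 ± 0.34), so that its siWdr5 level (208 CPM) lay below nt but above Mock. With siNcor1 Tpt1 was higher (0.80 ± 0.15) and Ddx3x lower (-0.54 ± 0.17).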

How the data were processed

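RNA of whole wells was profiled by CEL-Seq2, which counts 3′ ends by unique molecular identifiers (UMIs). Per the study's methods, reads were aligned with Bowtie2 to the mouse genome (mm10), counted on GENCODE genes and corrected for UMIs. The authors deposited a table of these raw UMI counts per gene and library, which was used for all main results. The authors also deposited log2 CPM values, which were used only in an alternative with limma. Per the study's methods, batch effects were removed from these by regression, and the batch is not named in the sources used here. Conditions and replicate numbers were read from the column names, and each replicate number is 1 of 3 sequenced pools.

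Libraries under 10000 counts were left out. Counts were tested with edgeR 4.0.16 (R 4.3.3): low-count filtering by condition, TMM scaling and a quasi-likelihood fit of all conditions with the pool as a block, in the same fit for all comparisons. Standard errors are the log2 fold change over the root of F, and p-values were adjusted over all 3013 genes by Benjamini-Hochberg (threshold 0.05). CPM are counts scaled to a common TMM-adjusted total of tested genes. The replicate number served as the block. It marks both a replicate of the experiment and a sequencing pool, which cannot be told apart. Deviations from condition means correlated by a median of 0.098 within a replicate number and by -0.068 between numbers. Within replicates 1, 2 and 3 the medians were 0.058, 0.086 and 0.22. Replicate pairs (131) differed by 1.301 to 5.688 in chi-square per gene, so none was counted as a duplicate. Named were members called in a comparison (up to 15), the 3 with the most counts in a role group, and Eef1a1, Eef2, Eif4a1, Eif4g2, Eif5a and Eif4ebp1. Of the other translation genes, up to 5 called per comparison were to be named, and more were named for nt against day 6 and for siWdr5.

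Alternatives were RLE scaling, no low-count filter, no block, DESeq2 1.42.0, limma 3.58.1, other controls and each replicate left out. Mock alone as the control, counting copies with a member and the elongation sum without Eef1b2 were chosen after seeing the data. In a simulation of siWdr5 against nt on 3013 genes, the fit recovered 43% of 100 genes changed by 1 on the log2 scale. At 2 it recovered 81%, and false calls were 0.071%. Whether these rates hold for the measured libraries, with their differences between pools, was not tested. The members and gene lists were chosen with earlier results of these data known.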

Additional observations from a re-analysis of the deposited data

Results flagged for a closer look

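In the 5 Mock libraries, 27 groups of values were checked for a library far from the other 4, and 3 were found by Dixon's criterion (critical value 0.71), where chance gives about 1 in 20. Eif1a stood at 720.6 CPM in the first Mock library of replicate 2, beside 595.8 to 626.9 CPM in the others (gap 0.7506 of the range). Eif5a stood at 605.3 CPM in the same library, beside 268.7 to 322.7 CPM (0.8395). Eif4g2 stood at 670.3 CPM in the second Mock library of replicate 2, beside 373.2 to 438.7 CPM (0.7795).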

How the results depend on the processing

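The 51 calls named for single members kept their direction in every alternative run, but many lost the threshold: 8 of 51 with RLE scaling, 13 with DESeq2, 27 without the replicate block, 35 without the low-count filter, 47 with limma on the deposited log2 values, 2 with copies counted together, and, of 39, 9 with nt and Mock together and 21 with Mock alone as the control. The causes were not tested. Counts of called members moved as follows. Without the low-count filter they went from 16 to 10 across days, 5 to 3 (day 6 against day 0), 4 to 0 (day 6 against day 3), 14 to 5 (nt against day 6), 9 to 3 (siWdr5), 4 to 0 (siBard1), 1 to 0 (siBrca1), 3 to 1 (siPou5f1) and 25 to 6 (all siRNAs). Without the replicate block they were 0 (day 6 against day 3), 9 (nt against day 6), 9 (across the screen, from 16), 5 (siWdr5), 0 (siBard1) and 9 (all siRNAs). With limma they were 9 across days, 2, 0 and 1 (day 6 against day 0, day 3 against day 0, day 6 against day 3), 2 (nt against day 6), 7 (across the screen), 0 with siWdr5, siBard1, siBrca1, siPou5f1 and siNcor1, and 1 (all siRNAs). With DESeq2 they were 3 (day 6 against day 0), 2 (day 6 against day 3) and 1 (siBard1). With nt and Mock together siBard1 had 2, and with Mock alone siBard1 had 2, siBrca1 0 and siNcor1 0. With copies counted together siBrca1 had 2.

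Leaving out 1 replicate each gave 7 to 12 calls across days, 2 to 5 (day 6 against day 0), 1 to 3 (day 3 against day 0), 1 to 3 (day 6 against day 3), 6 to 11 (nt against day 6), 9 to 14 (across the screen), 4 to 7 (siWdr5), 0 to 1 (siBard1), 0 (siBrca1), 0 to 2 (siPou5f1), 0 to 1 (siNcor1) and 6 to 16 (all siRNAs). Replicate 3, the deepest pool, weighed most: 37 of 49 calls were lost without it, 18 of 51 without replicate 1 and 27 of 51 without replicate 2.

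For the sums, RLE scaling gave initiation ratios of 1.006 (day 6 against day 0), 0.822 (nt against day 6) and 1.121 (siWdr5 against nt, reversed from 0.989) and elongation ratios of 0.909 (nt against day 6) and 0.974 (siWdr5). As shares of all counts the initiation ratios were 0.942 (day 3 against day 0), 0.740 (nt against day 6) and 1.044 (siWdr5, reversed), and the elongation ratio 0.820 (nt against day 6). With core factors only, initiation with siWdr5 was 0.971. The elongation ratio of nt against day 6 was 0.971 with Eif5a and Eif5a2 added, 0.955 without Eef1a1 and 0.808 without Eef1b2, and that of siWdr5 was 1.05 without Eef1b2 (reversed). Low counts limit the precision of rare members, such as Eif3f with 8 counts in the 3 nt libraries.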
